A study of Homo sapiens with 3 samples.

Results

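The transcripts described here were those of 49 genes of DNA replication, mitosis, and cell-cycle control, out of 25043 genes with a gene identifier on the arrays. The genes were listed by function, with earlier results of these data known: 19 act in DNA replication, 18 in the G2 phase and mitosis (G2/M), and 12 control passage through the cycle. Each gene was read from the probe with the highest mean normalized intensity over the 3 arrays. All 49 genes had a probe, and all 49 were well above background on each array, so that none was lost to a filter on low values.

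RNA came from THP-1, a human monocytic leukemia line, which all groups share. The cells were turned into macrophages with the phorbol ester PMA at 100 ng/mL for 24 to 36 h and rested overnight in fresh medium. The Ctrl cells received no further treatment, the IMQ cells received imiquimod, a toll-like receptor ligand, and the third group received DMD, a benzenoid of the fungus Antrodia cinnamomea, before IMQ. The third label reads IMQ+X, and X was taken as DMD because no other compound is named beside IMQ. The titles give 4 h for every group, whereas the study's methods describe a longer exposure to IMQ for its THP-1 experiments in general, so that the time is not settled. Each group was 1 sample on 1 one-color array, all on 1 slide, so that the differences below were not checked by replicates and carry no p-value.

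Before a cell copies its DNA, the origin recognition complex, CDC6, and CDT1 load the MCM2 to MCM7 helicase onto chromatin, and CDC45 and the GINS complex then activate it. Many of these genes are targets of the E2F transcription factors, which the retinoblastoma protein holds in check until cyclins D and E with their kinases release them. Genes of mitosis follow later in the cycle, and many carry a CHR element and CCAAT boxes in their promoters. The DREAM complex, MYB-family proteins, and FOXM1 act through the CHR element. PMA slows the division of THP-1 cells as they differentiate, and transcripts of dividing cells in a culture come from those cells that still cycle. In bulk RNA such as this, fewer cycling cells and less of the RNA per cell cannot be told apart.

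The promoters of some of the genes are shown first, as promoters are where these gene groups differ in sequence. RefSeq gave promoter windows (GRCh38.p14, 250 bases before to 50 after the start of transcription) for 39 of the 49 genes. These windows were searched on both strands for E2F letters (TTTCCCGC, TTTGGCGC, TTTCGCGC, or TTTGCCGC), for CHR letters (TTTGAA), and for the CCAAT box (CCAAT). Among the 29 genes with 1 window there was 1 overlap between letters of different kinds. The 250 upstream bases of the 3 genes with the largest falls after IMQ follow, with the E2F letters in capitals. For CDCA7 this rank rests on 1 probe, since the mean over its 2 probes (-2.001) was a smaller fall than those of UHRF1 (-2.07) and MCM4 (-2.06) in the same setting.
CDCA7 (chr2:173354622-173354871, plus strand): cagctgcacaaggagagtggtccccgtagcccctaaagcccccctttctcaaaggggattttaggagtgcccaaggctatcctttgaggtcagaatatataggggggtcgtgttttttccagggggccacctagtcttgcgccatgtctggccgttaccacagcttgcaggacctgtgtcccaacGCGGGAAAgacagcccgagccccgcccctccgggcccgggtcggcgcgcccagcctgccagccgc
GINS2 (chr16:85688955-85689204, minus strand): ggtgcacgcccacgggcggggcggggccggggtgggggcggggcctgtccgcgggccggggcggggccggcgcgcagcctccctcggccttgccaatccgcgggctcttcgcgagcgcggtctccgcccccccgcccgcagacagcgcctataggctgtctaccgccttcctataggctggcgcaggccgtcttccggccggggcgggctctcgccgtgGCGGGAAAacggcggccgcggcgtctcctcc
E2F2 (chr1:23531234-23531483, minus strand): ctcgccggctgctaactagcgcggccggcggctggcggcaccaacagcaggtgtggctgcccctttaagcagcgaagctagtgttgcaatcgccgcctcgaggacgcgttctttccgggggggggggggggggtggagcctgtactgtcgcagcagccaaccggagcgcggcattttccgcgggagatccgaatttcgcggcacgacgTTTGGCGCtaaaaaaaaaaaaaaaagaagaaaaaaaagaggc
The E2F letters began 65 bases upstream of the start in CDCA7, 31 in GINS2, and 42 in E2F2. The next 2 sequences are examples with CHR letters and not the largest falls of the G2/M group. KIF20A (-1.73), CCNA2 (-1.49), and the checkpoint gene BUB1 had neither E2F nor CHR letters in their windows and are not shown. The examples belong to spindle checkpoint genes, CDC20 and BUB1B. The capitals mark the CHR letters, which began 178 and 65 bases upstream in CDC20 and 23 in BUB1B.
CDC20 (chr1:43358731-43358980, plus strand): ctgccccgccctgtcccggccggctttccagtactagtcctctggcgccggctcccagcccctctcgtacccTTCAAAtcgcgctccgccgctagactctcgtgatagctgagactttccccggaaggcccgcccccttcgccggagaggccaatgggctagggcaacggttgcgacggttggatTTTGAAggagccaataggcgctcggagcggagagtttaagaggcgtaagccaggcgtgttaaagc
BUB1B (chr15:40160819-40161068, plus strand): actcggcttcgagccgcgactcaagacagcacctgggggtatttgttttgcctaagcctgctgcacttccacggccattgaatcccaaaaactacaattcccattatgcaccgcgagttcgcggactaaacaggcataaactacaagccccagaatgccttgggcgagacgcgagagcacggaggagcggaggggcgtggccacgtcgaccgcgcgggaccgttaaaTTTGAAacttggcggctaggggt
CDKN1A, the only one of the 49 genes at least 2-fold higher after IMQ, had neither kind of letters in its window, and its 250 upstream bases have no capitals.
CDKN1A (chr6:36678464-36678713, plus strand): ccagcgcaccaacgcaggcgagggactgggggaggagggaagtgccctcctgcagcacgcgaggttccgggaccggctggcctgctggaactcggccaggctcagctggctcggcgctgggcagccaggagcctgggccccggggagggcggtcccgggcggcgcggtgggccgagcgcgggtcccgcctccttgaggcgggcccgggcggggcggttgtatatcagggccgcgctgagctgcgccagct

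E2F letters were found in 12 of the 17 replication genes with a window (70.6%), in 2 of 15 G2/M genes (13.3%), and in 2 of 7 control genes, namely E2F1 and E2F2. Over all 27305 genes of the RefSeq table the share was 3.99%, and over all 35116 windows it was 3.31%. CHR letters showed the opposite division, with 10 of 15 G2/M genes (66.7%), 1 of 17 replication genes, RRM1, and 0 of 7 control genes, against 18.2% of all genes and 15.2% of all windows. The CCAAT box was in 13 of 17 replication and in 14 of 15 G2/M genes, against 39.7% of all genes and 34.6% of all windows. In the further genes of the same functions described below, E2F letters were in 18 of 45 replication genes (40.0%) and 4 of 55 G2/M genes (7.27%), and CHR letters in 4 of 45 (8.89%) and 36 of 55 (65.5%). A gene counted when any of its windows held the letters. Such a match is a description of the letters, and binding of a factor was not measured.

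**Figure D1:**
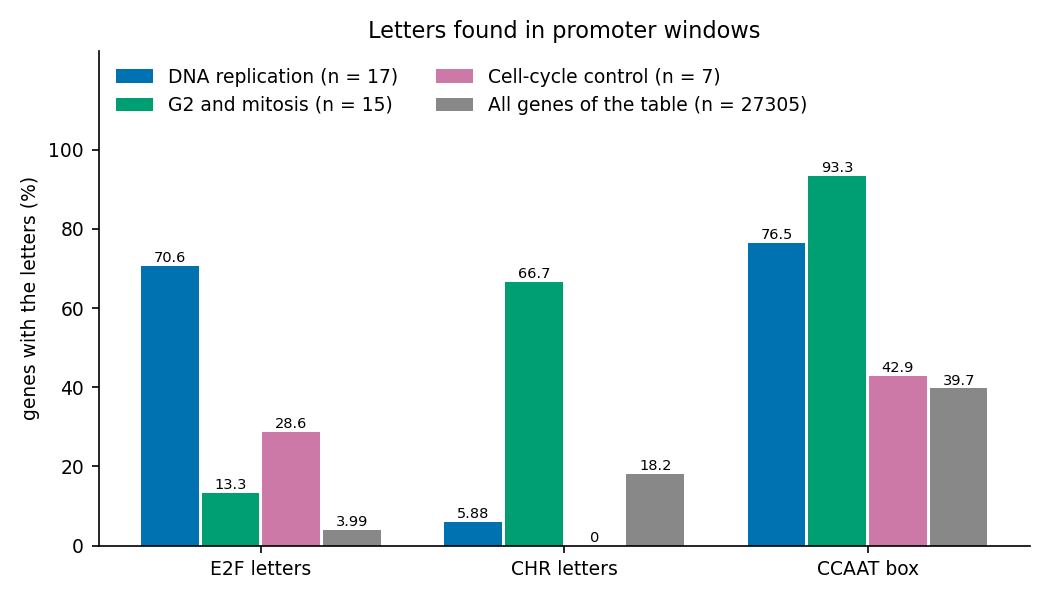
Share of genes in percent (y axis, from 0) whose promoter window held E2F letters, CHR letters, or a CCAAT box, for the 3 gene groups and for all genes of the RefSeq table. E2F letters were most frequent in the replication genes (70.6%) and CHR letters in the G2/M genes (66.7%).

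The arrays themselves differed in brightness. The median processed intensity was 94.5, 61.8, and 76.4 on the Ctrl, IMQ, and IMQ+DMD arrays, over median backgrounds of 32 to 34, and between 66.6% and 72.02% of the probes were well above background. Values below are log2 of the quantile-normalized intensity of a probe, and differences are of log2 values between single arrays, where 1 unit is 2-fold. The technical SD beside a difference comes from probes printed in 10 spots and covers noise within an array only. Over the 49 genes its median was 0.066 for IMQ against Ctrl. Of 12 monocyte and macrophage markers 10 were on the arrays, and all 10 were above background on each, whereas of 14 markers of other cell types 11 to 13 also were. After IMQ 8 of these 10 macrophage markers were lower, with log2 differences from -1.22 (CD163) to 0.44 (ITGAX) and with CD33 at -0.83 and CD14 at -0.71. The epithelial marker EPCAM was not above background on any array, but CD79A, GNLY, and PECAM1, markers of B cells, cytotoxic lymphocytes, and endothelium, of which monocytes also make PECAM1, had log2 values of 11.74 to 13.04. NCAM1, a marker of natural killer cells and neurons, had 5.14 on the Ctrl, 8.21 on the IMQ, and 7.56 on the IMQ+DMD array. The summed processed intensity of the macrophage markers was 740931, 537688, and 489807 on the Ctrl, IMQ, and IMQ+DMD arrays, and that of the others was 22210, 16993, and 15763. The part of other cell types in the differences below was not tested.

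Transcripts of the cell cycle were lower after IMQ than in Ctrl. Of the 49 genes, 47 were lower, 35 of them at least 2-fold (71.4%), and 1 was at least 2-fold higher. Of the 20812 genes that could be compared, 10961 were lower, with 4.54% at least 2-fold lower and 4.35% at least 2-fold higher. The median log2 difference was -1.26 over the 49 genes and -0.03 over all genes compared. The difference exceeded 2 technical SDs for 48 of the 49 genes, the exception being CCND2, whose probe was dim. This was not counted over all genes compared, whose quartiles were -0.31 and 0.25, so that the count has no share to set beside it. In replication genes the median was -1.70, in G2/M genes -1.03, and in control genes -1.12. In the replication group 17 of 19 genes lay below the G2/M median, and in the G2/M group 1 of 18 lay below the replication median. This order did not hold in the further genes of the same functions, where the medians were -0.97 for replication and -1.07 for G2/M. Between IMQ+DMD and IMQ, none of the 49 genes was 2-fold apart, but few genes were on the whole array. Of the 20727 genes compared there, 0.835% were at least 2-fold higher and 1.01% at least 2-fold lower.

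**Figure D2:**
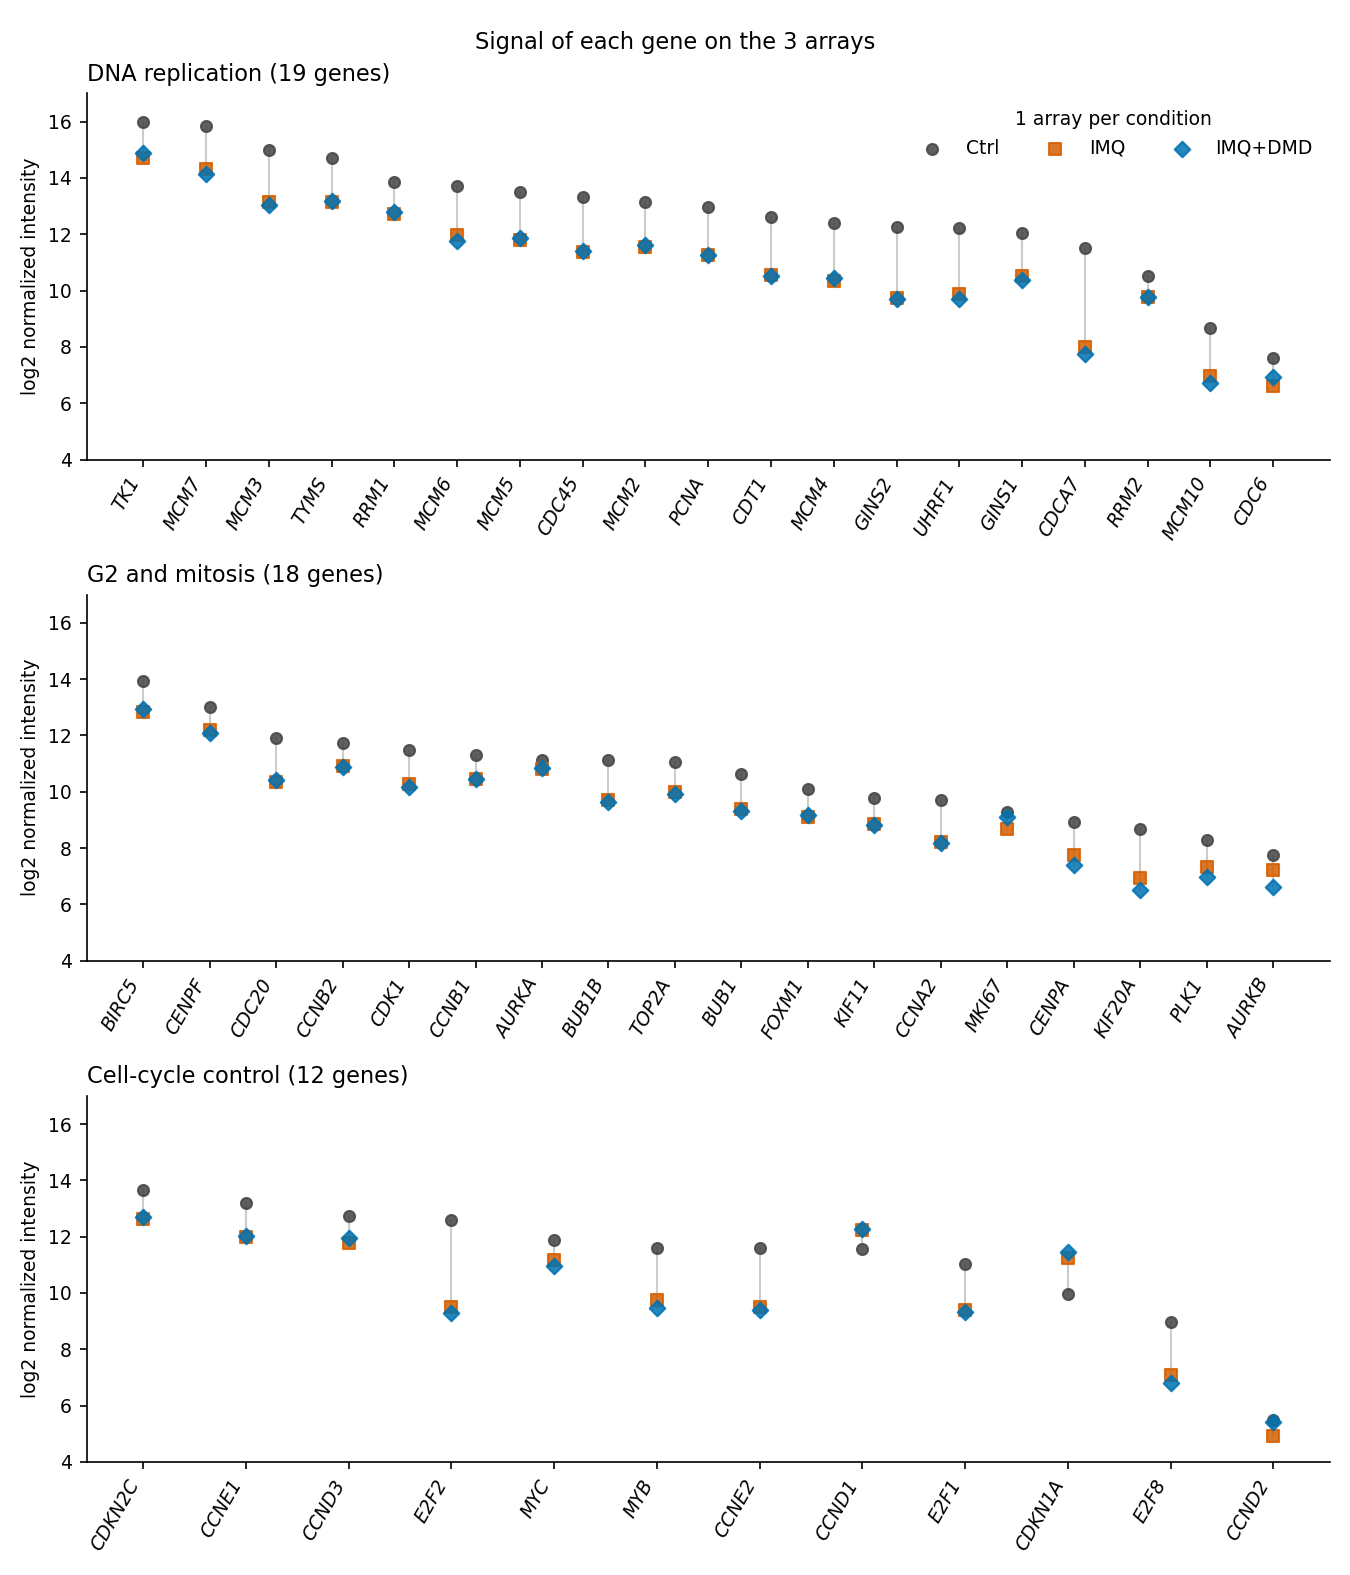
Log2 normalized intensity (y axis) of each of the 49 genes (x axis) on the Ctrl, IMQ, and IMQ+DMD arrays, 1 point per array, in 3 panels by group. For 47 genes the Ctrl point lies above the IMQ point, CCND1 and CDKN1A being the exceptions, and the IMQ and IMQ+DMD points lie within 1 log2 unit of each other in each gene.

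The helicase that opens the DNA moved as a whole. The log2 values of MCM4 were 12.41 in Ctrl, 10.35 in IMQ, and 10.45 in IMQ+DMD cells, a 4.17-fold fall after IMQ (log2 difference -2.06, technical SD 0.066). MCM3 had 14.997, 13.14, and 13.06, and was lower by 3.62-fold (-1.85). MCM6 had 13.73, 11.98, and 11.76, a difference of -1.75. In these genes the Ctrl array stood alone, and both arrays with IMQ were low. MCM5 had 13.51, 11.81, and 11.87 (-1.70), MCM2 had 13.14, 11.55, and 11.62 (-1.59), and MCM7 had 15.85, 14.31, and 14.15 (-1.55). The differences of the 6 subunits spanned -2.06 to -1.55 on the probes that stand for the genes. A second MCM7 probe differed by -1.20, and a second MCM5 probe by -1.78.

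Factors that load and activate the helicase were lower as well. GINS2, a GINS subunit whose probe was printed in 10 spots (hg19 chr16:85711654-85711713), had log2 values of 12.26 on the Ctrl, 9.75 on the IMQ, and 9.71 on the IMQ+DMD array. It was lower by 5.66-fold after IMQ, a difference of -2.50 with an SE of 0.027 between spots. Another GINS subunit, GINS1, had 12.03, 10.53, and 10.39, a difference of -1.502, so that both subunits were low on both IMQ arrays. CDT1, which brings the helicase to the origin, had 12.60, 10.57, and 10.52 (-2.03). CDC45, a part of the active helicase, had 13.31, 11.38, and 11.39 (-1.94), and its IMQ and IMQ+DMD values were nearly equal. MCM10, an activating factor, had 8.66, 6.97, and 6.73 (-1.68). CDC6, the loading ATPase, had 7.62, 6.61, and 6.94, and its difference of -1.01 lay just beyond 2-fold with a technical SD of 0.19. MCM10 and CDC6 were dim on the IMQ array, and their differences had the largest technical SDs of the replication group.

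PCNA, the sliding clamp of the DNA polymerases, had log2 values of 12.98 on the Ctrl, 11.27 on the IMQ, and 11.26 on the IMQ+DMD array. It was 3.26-fold lower after IMQ (-1.70). A second PCNA probe differed by -1.65, the closest match between probes of a gene. UHRF1, which guides maintenance methylation of DNA to the replication fork, had 12.23, 9.89, and 9.71, and was lower by 5.04-fold (-2.33). A second UHRF1 probe differed by -1.81. CDCA7, a MYC- and E2F-responsive gene that supports the chromatin remodeler HELLS, had the largest difference of the 49. Its log2 values were 11.52, 8.01, and 7.73, an 11.4-fold fall (-3.51, technical SD 0.094), on a probe at chr2:174233490-174233549 (hg19). The other CDCA7 probe, at chr2:174232387-174232446 and listed under the same transcript, had 9.08, 8.59, and 8.76, a difference of -0.49 (technical SD 0.086). Both probes were lower after IMQ, but the size of the CDCA7 fall depends on the probe, and the mean over both gave -2.001.

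Of the enzymes of nucleotide supply, TK1, RRM1, and RRM2 gave, with CDC6, the smallest differences of the replication group. TYMS, which makes thymidylate, had log2 values of 14.70, 13.14, and 13.20 on the Ctrl, IMQ, and IMQ+DMD arrays, a difference of -1.57. TK1, the salvage thymidine kinase, had 15.98, 14.72, and 14.87 (-1.26). RRM1, the large subunit of ribonucleotide reductase, had 13.86, 12.73, and 12.81 (-1.13). All were low on both IMQ arrays. The small subunit RRM2 had 10.52, 9.77, and 9.78, and its difference of -0.74 made it the only replication gene less than 2-fold lower.

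**Figure D3:**
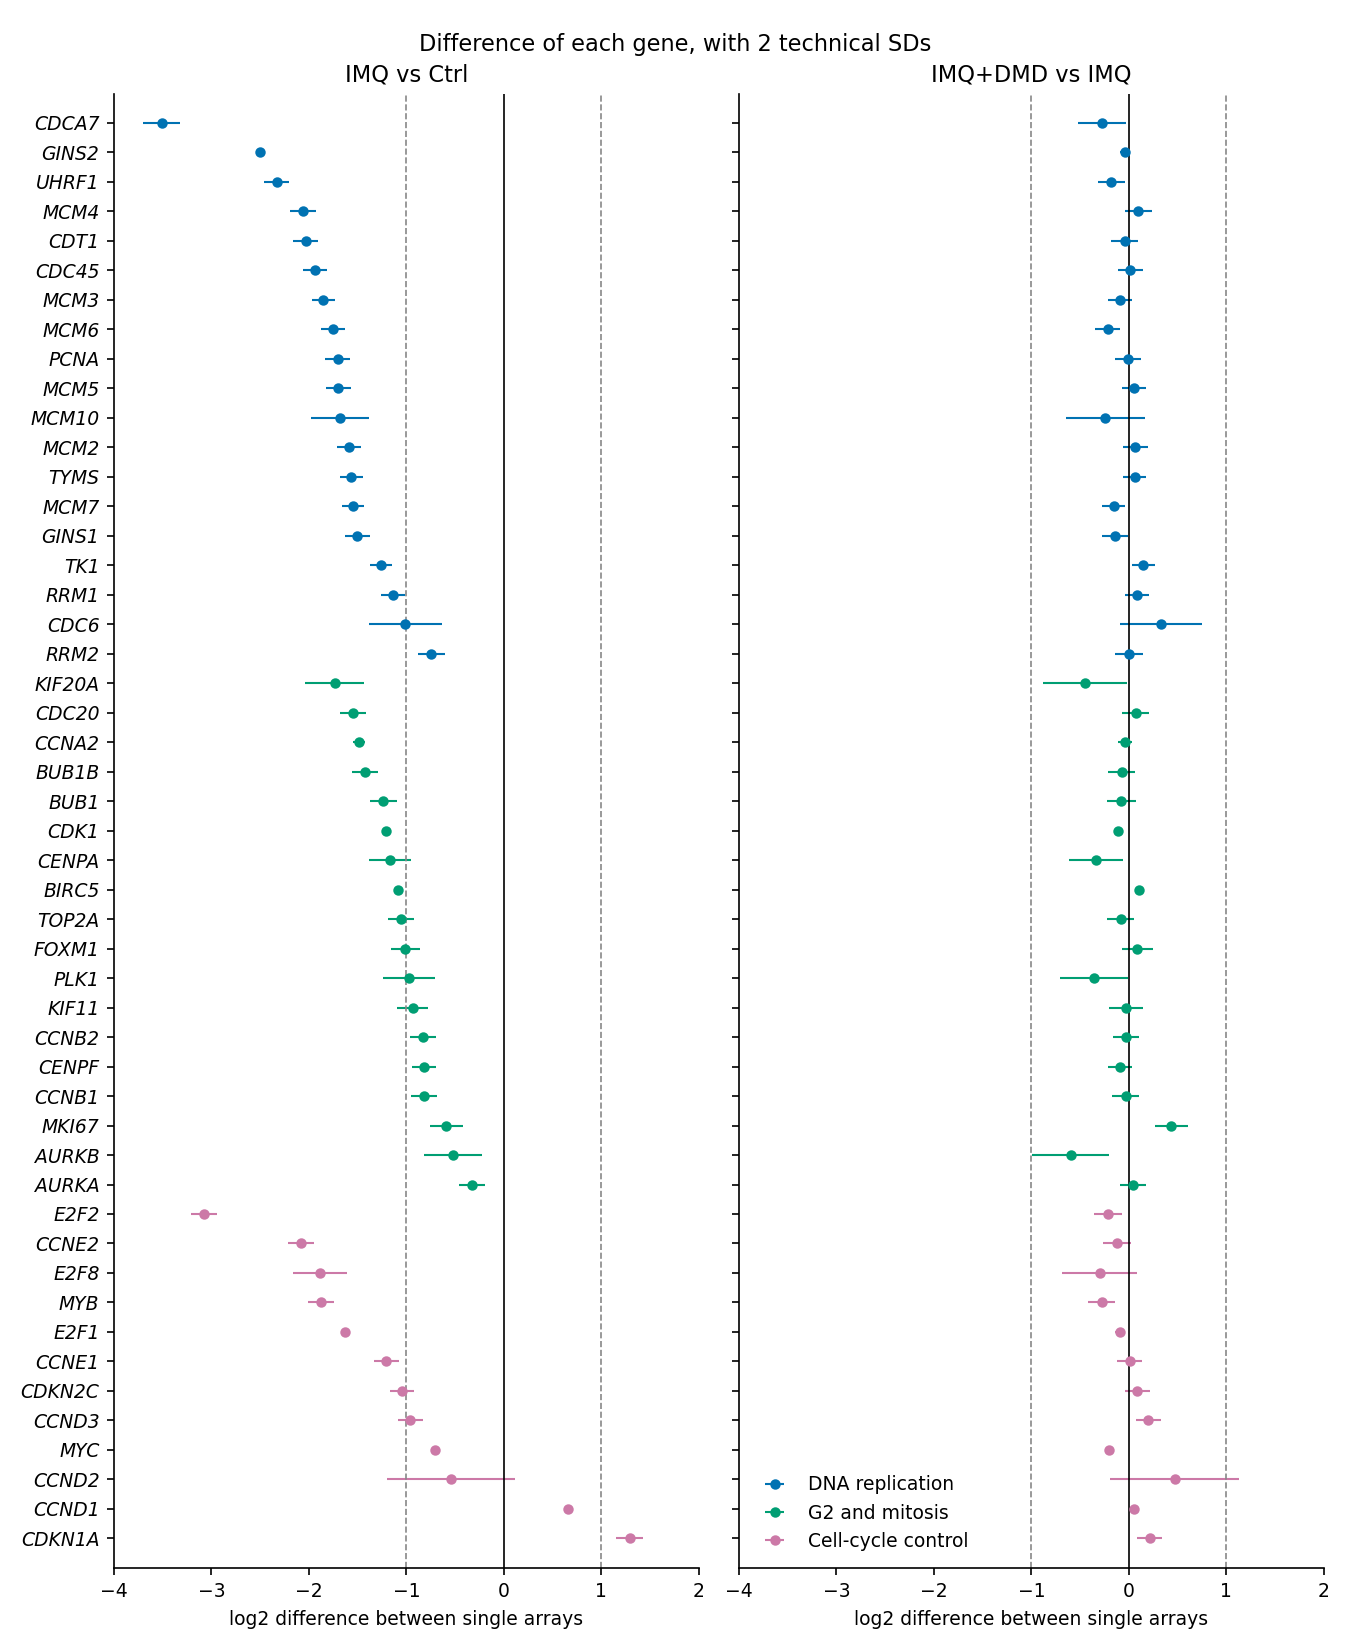
Log2 difference between single arrays (x axis) for each gene (y axis), IMQ against Ctrl on the left and IMQ+DMD against IMQ on the right, with bars of 2 technical SDs and dashed lines at 2-fold. On the left the points run from -3.51 (CDCA7) to 1.29 (CDKN1A), and on the right from -0.60 (AURKB) to 0.47 (CCND2).

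In the G2/M group 18 of 18 genes were lower after IMQ, 10 of them at least 2-fold. Of all 20812 genes compared, 10961 were lower, 945 of them at least 2-fold. The spindle checkpoint genes had some of the larger falls of this group. CDC20, the activator of the anaphase-promoting complex, had log2 values of 11.91 on the Ctrl, 10.36 on the IMQ, and 10.43 on the IMQ+DMD array. It was 2.93-fold lower after IMQ (-1.55, technical SD 0.066). BUB1B had 11.13, 9.71, and 9.64 (-1.42), and BUB1 had 10.62, 9.38, and 9.30 (-1.24), both encoding checkpoint kinases or kinase-like proteins at the kinetochore. The 3 genes were high on the Ctrl array and low on both arrays with IMQ.

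Among the cyclins of this group, CCNA2, which serves S phase and early mitosis, had log2 values of 9.71, 8.22, and 8.18 on the Ctrl, IMQ, and IMQ+DMD arrays, a difference of -1.49 with an SE of 0.038 between its 10 spots. CDK1, the mitotic kinase that cyclins A and B activate, had 11.47, 10.26, and 10.15 (-1.21, SE 0.016). The B-type cyclins differed less, with -0.82 for CCNB1 and -0.83 for CCNB2. The second probes differed by -0.35 for CCNB1 and -0.86 for CDK1, short of 2-fold. With spike-in scaling CCNB1 (-1.07) and CCNB2 (-1.09) passed 2-fold. In that setting the median of all genes compared was -0.36, and 11.3% of them were at least 2-fold lower.

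Genes of chromosomes and the spindle gave a similar range. KIF20A, a kinesin of the central spindle, had log2 values of 8.68, 6.94, and 6.50 on the Ctrl, IMQ, and IMQ+DMD arrays, the largest difference of the G2/M group (-1.73, technical SD 0.15). CENPA, the histone of centromeres, had 8.91, 7.74, and 7.41 (-1.17). BIRC5, which encodes survivin, a subunit of the chromosomal passenger complex, had 13.92, 12.84, and 12.95 (-1.08, SE 0.022). In all 3 the Ctrl array was the highest. TOP2A, which untangles DNA, had 11.06, 10.00, and 9.92 (-1.06), and FOXM1, a transcription factor of mitotic genes, had 10.11, 9.09, and 9.18 (-1.01). CENPA, TOP2A, and FOXM1 lay within 2 technical SDs of the 2-fold line.

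The remaining G2/M genes missed 2-fold on the probe that stands for the gene. PLK1 (-0.97) and KIF11 (-0.94), a kinase and a kinesin of spindle assembly, fell just short, and CENPF, a kinetochore protein, differed by -0.82. Their second probes, where there was one, passed 2-fold, with -1.11 for PLK1 (technical SD 0.29) and -1.11 for CENPF (technical SD 0.16), and the mean over both PLK1 probes was -1.04. The proliferation marker MKI67 had log2 values of 9.26, 8.67, and 9.11 on the Ctrl, IMQ, and IMQ+DMD arrays, a difference of -0.59 after IMQ, while its other probes differed by -0.98 and -0.96. The aurora kinases had the smallest differences of the group, with -0.52 for AURKB and -0.33 for AURKA.

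The control genes did not move together. Their differences ran from -3.08 to 1.29, with 7 of 12 at least 2-fold lower and 1 at least 2-fold higher. Among the transcription factors, the activator E2F2 (probe at hg19 chr1:23832933-23832992) had log2 values of 12.58 on the Ctrl, 9.51 on the IMQ, and 9.29 on the IMQ+DMD array. It was 8.44-fold lower after IMQ (-3.08, technical SD 0.067). E2F1, another activator, had 11.04, 9.41, and 9.32 over 10 spots (-1.63, SE 0.031). E2F8, an atypical repressor, had 8.98, 7.10, and 6.80 (-1.88). All 3 E2F genes were high on the Ctrl array alone. By contrast, the 5 other E2F genes, E2F3 to E2F7, named here after their values were seen, had a median of -0.02 and ranged from -0.91 (E2F7) to 0.24 (E2F6).

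The cyclins that drive the start of S phase divided by type. CCNE2 had log2 values of 11.59, 9.51, and 9.39 on the Ctrl, IMQ, and IMQ+DMD arrays, a 4.24-fold fall (-2.08), and its second probe differed by -1.82. CCNE1 had 13.20, 12.00, and 12.01 (-1.20), so that both cyclins E were low on the IMQ arrays. None of the 3 cyclins D was 2-fold apart. CCND3 had 12.72, 11.76, and 11.96 (-0.96), just short of 2-fold. CCND1 had 11.57, 12.23, and 12.28, and was higher after IMQ by 0.66 with an SE of 0.015 between 10 spots (0.29 without normalization). CCND2 had 5.48, 4.94, and 5.41, and its difference of -0.54 was within 2 technical SDs (technical SD 0.33). Cyclin D transcripts therefore ran in both directions.

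CDK inhibitors also went opposite ways. CDKN1A, which encodes p21, the inhibitor induced by p53 and by differentiation signals, had log2 values of 9.95 on the Ctrl, 11.24 on the IMQ, and 11.45 on the IMQ+DMD array (probe at hg19 chr6:36652178-36652237). It was higher after IMQ by 2.44-fold (1.29, technical SD 0.067), and the Ctrl array was the lowest. Without normalization between arrays this difference was 0.91, below 2-fold. CDKN2C, an inhibitor of CDK4 and CDK6 that is itself an E2F target, had 13.66, 12.62, and 12.70 and was lower (-1.04).

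MYB, a transcription factor of immature blood cells, had log2 values of 11.60, 9.73, and 9.45 on the Ctrl, IMQ, and IMQ+DMD arrays, a 3.66-fold fall (-1.87). Its second probe, listed under another transcript, was dim (5.55, 4.99, and 5.05) and differed by -0.56 with a technical SD of 0.32. MYC, a driver of growth and the cell cycle, had 11.88, 11.18, and 10.97 over 10 spots, a difference of -0.70 (SE 0.031). The second MYC probe was also dim (5.58, 5.95, and 6.03) and differed by 0.37 with a technical SD of 0.28. Both dim probes lay within 2 technical SDs of 0, so that the falls of MYB and MYC rest on their brighter probes.

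Probes could be compared for 13 of the 49 genes, 12 with 2 probes and 1 (MKI67) with 3. Of these 27 probes, 26 were lower after IMQ, the dim MYC probe being the exception. The gap between probes of a gene ran from 0.05 for PCNA to 3.02 for CDCA7, and was below 0.3 for 5 genes and at least 0.3 for 8. After CDCA7, the widest gaps were in MYB (1.31) and MYC (1.07). For the 36 genes with a single probe no such check was possible.

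**Figure D4:**
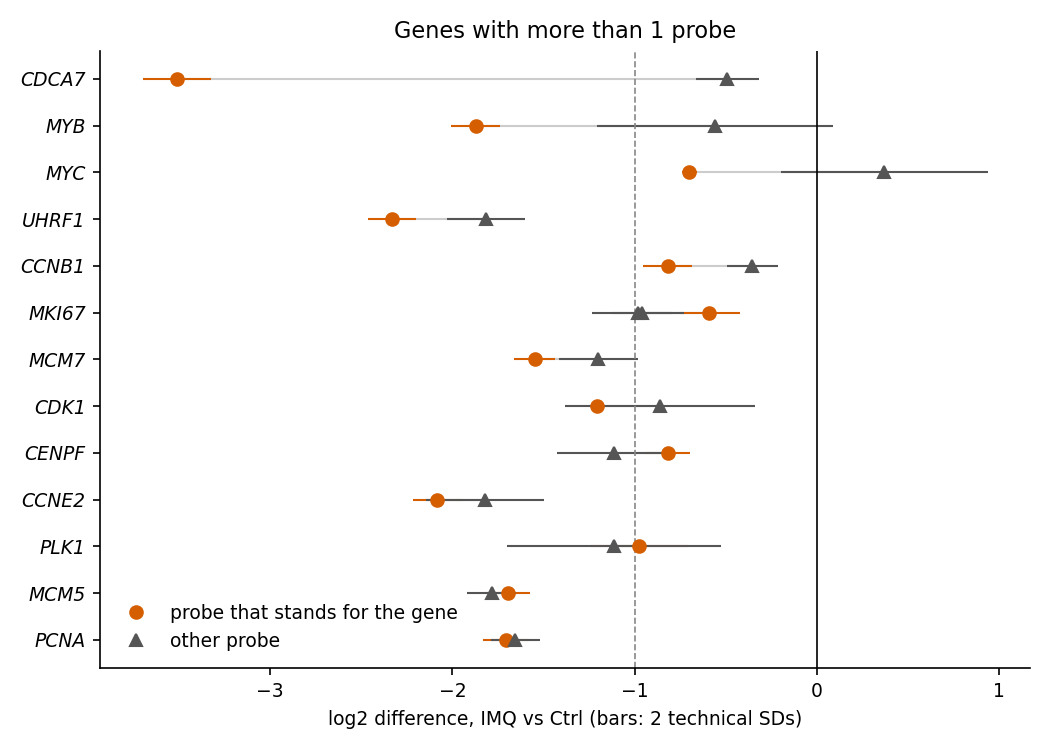
Log2 difference between the IMQ and Ctrl arrays (x axis) for each probe of the 13 genes with more than 1 probe (y axis), with bars of 2 technical SDs. Circles are the probes that stand for the gene and triangles the others, and the CDCA7 probes lie 3.02 log2 units apart whereas the PCNA probes lie 0.05 apart.

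In IMQ+DMD cells these transcripts were close to their levels in IMQ cells, as were those of most genes compared. The quartiles of the 49 differences were -0.16 and 0.07. None of the 49 genes was at least 2-fold higher or lower in IMQ+DMD than in IMQ, where 0.835% of the 20727 genes compared were at least 2-fold higher and 1.01% at least 2-fold lower. The median log2 difference was -0.01 for replication, -0.06 for G2/M, and -0.04 for control genes, and -0.02 over all genes compared. The 49 differences divided into 20 above and 29 below 0, and those of all genes compared into 9654 above and 11047 below 0. The difference exceeded 2 technical SDs in 20 genes, 14 lower and 6 higher. This too was not counted over all genes compared, whose quartiles were -0.17 and 0.13. With 1 array per group, a difference of this size between cultures cannot be told apart from one due to DMD.

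The larger of these differences were in dim probes. AURKB had the largest fall (-0.60, technical SD 0.20), from 7.23 on the IMQ to 6.63 on the IMQ+DMD array. KIF20A (-0.45), PLK1 (-0.36), and CENPA (-0.34) were also lower by more than 2 technical SDs. MKI67 was higher (0.44, technical SD 0.085). Within 2 technical SDs of 0 lay E2F8 (-0.30, technical SD 0.19), CCND2 (0.47, technical SD 0.33), and CDC6 (0.33, technical SD 0.21). These 8 genes, at least 0.3 log2 units from 0, were all among the 12 genes whose log2 value on the IMQ array was below 9. The other 37 genes lay between -0.28 (MYB) and 0.21 (CDKN1A). Of the MKI67 probes, the others differed by 0.36 and -0.16, and the second CCNB1 probe differed by 0.43 where the first gave -0.03. Second probes were also higher where the first was lower in PLK1 (0.10, technical SD 0.33), UHRF1 (0.38), CDCA7 (0.18), CDK1 (0.33), MYB (0.06), and MYC (0.08). In CCNE2, CENPF, MCM5, MCM7, and PCNA the second probe kept the direction. Replication genes divided into 9 above and 10 below 0, G2/M genes into 5 and 13, and control genes into 6 and 6. All genes compared divided into 9654 and 11047.

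The promoter letters and the array values could be set side by side for 39 genes. Of the 16 genes with E2F letters, 16 were at least 2-fold lower after IMQ, with a median difference of -1.67, and of the 23 without them 13 were, with a median of -1.06. Among the genes outside this list that were compared and had a window, 62 of 742 with E2F letters were at least 2-fold lower (8.36%), and 564 of 12814 without (4.40%). Of the 11 genes with CHR letters, 6 were at least 2-fold lower (median -1.06), and of the 28 without, 23 were (median -1.58). Outside this list the direction was the other one, with 140 of 2066 genes with CHR letters at least 2-fold lower (6.78%) and 486 of 11490 without (4.23%). For the CCAAT box, 21 of 30 genes with it and 8 of 9 without were at least 2-fold lower, against 5.58% and 3.93% outside the list. Most E2F letters stood in replication genes and most CHR letters in G2/M genes, so that these divisions repeat the division by group. The shares outside the list still include those further replication, G2/M, and control genes, described below, that had a window. Of all 52 further replication and 66 further G2/M genes, 25 and 40 were at least 2-fold lower after IMQ. The shares are therefore not a background free of cell-cycle genes, and they were not recomputed without the further genes.

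Other genes of the same pathways, listed by function, gave a wider view. Of 52 further replication genes, 25 were at least 2-fold lower after IMQ and 0 higher (median -0.97). The largest falls were in PRIM1, the catalytic subunit of primase, with log2 values of 11.46, 9.57, and 9.52 on the Ctrl, IMQ, and IMQ+DMD arrays (-1.90), in CHAF1B of chromatin assembly factor (12.11, 10.42, and 10.47, -1.69), and in ORC1 of the origin recognition complex (9.22, 7.53, and 7.49, -1.69). Complexes differed within this list, as was seen only with the values known. All 4 genes of DNA polymerase alpha and primase were at least 2-fold lower (-1.90 to -1.02). In the origin recognition complex 2 of 6 were, with ORC1 at -1.69 and ORC2 at 0.04. The single-strand binding complex RPA had 0 of 3, between -0.91 and -0.76.

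Of 66 further G2/M genes, 40 were at least 2-fold lower after IMQ and 0 higher (median -1.07). The largest falls were in CENPM, a centromere protein (13.76, 12.07, and 12.15 on the Ctrl, IMQ, and IMQ+DMD arrays, -1.69), in the checkpoint kinase TTK (9.83, 8.30, and 8.19, -1.52), and in the centrosome kinase NEK2 (7.95, 6.46, and 6.12, -1.49). The NDC80 complex, which ties kinetochores to microtubules, was at least 2-fold lower in 4 of 4 genes (-1.22 to -1.14). Its median was -1.19, against -1.03 for the 18 G2/M genes above. In the condensin complex of the same list 1 of 5 genes was at least 2-fold lower, with a median of -0.66 and NCAPH at -0.13.

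The further control genes did not share the fall. Of 47, 45 were compared, and their median was -0.04. At least 2-fold lower were 4 (8.89%) and higher 3 (6.67%), against 4.54% and 4.35% of all genes compared. Lower were CDC25A, the phosphatase that activates CDK2 (11.08, 9.59, and 9.59, -1.48), MYBL1 (10.28, 9.19, and 9.24, -1.09), GADD45A (12.06, 10.99, and 11.14, -1.07), and MYBL2 (-1.01). Higher were MXD1, an antagonist of MYC (9.63, 11.76, and 11.54, 2.13), the antiproliferative gene BTG2 (13.50, 14.86, and 15.04, 1.36), and the stress gene GADD45B (11.22, 12.32, and 12.01, 1.11). The 5 compared genes of this list named as CDK inhibitors ranged from -0.77 (CDKN3, which encodes a phosphatase) to 0.49 (CDKN2A). The lowest of the others was CDKN1C (-0.09). None of the 5 was 2-fold apart, unlike CDKN1A. Between IMQ+DMD and IMQ, 0 genes measured on both arrays were 2-fold apart in the 3 further lists. Of all 19909 genes measured on both, 0.643% were at least 2-fold higher and 0.648% at least 2-fold lower. MYCN was not well above background on the IMQ array and was at least 1.25-fold higher in IMQ+DMD, and CDKN2B was not compared.

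**Figure D5:**
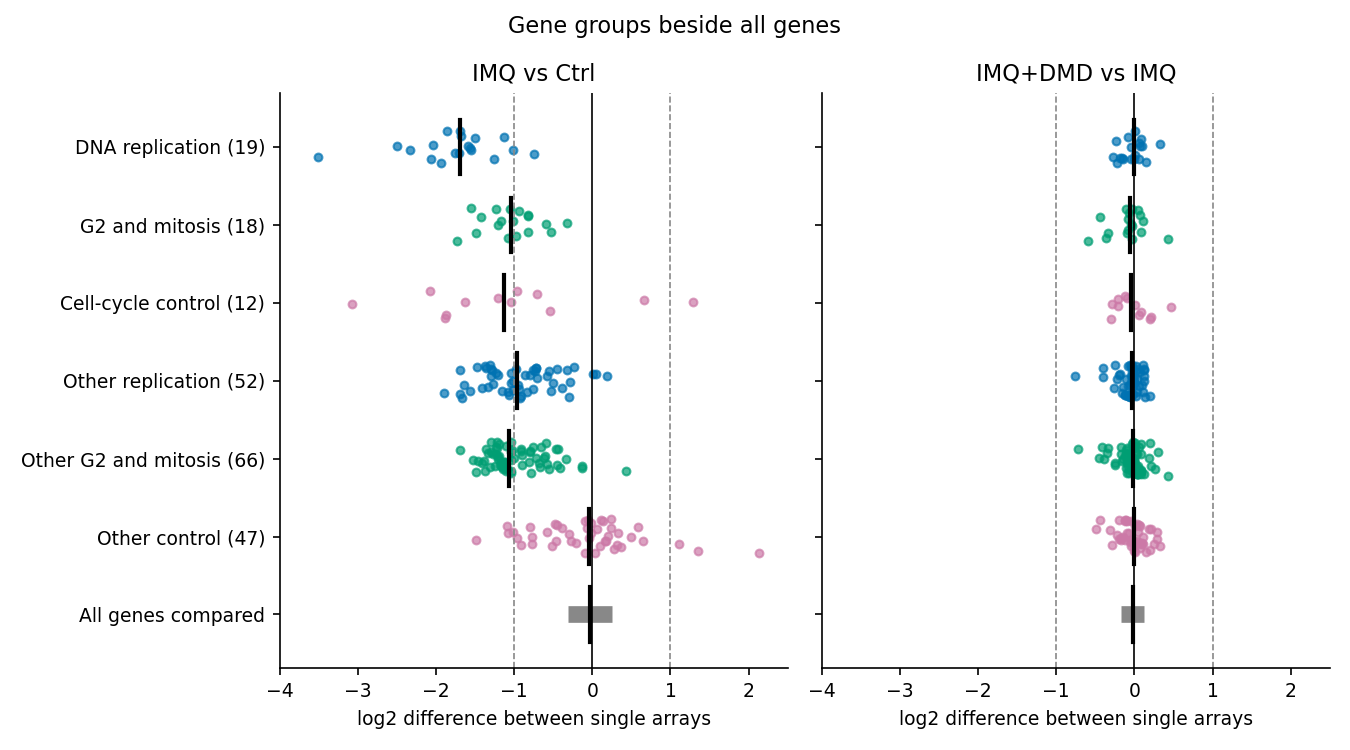
Log2 difference between single arrays (x axis) for the 3 groups of the 49 genes and for the further genes of the same functions (y axis, 1 point per gene compared, black bars at the medians), with the quartiles (grey) and median of all genes compared. The points of the 19 replication and 18 G2/M genes lie below 0 after IMQ (medians -1.70 and -1.03), as do all but 3 of the 52 further replication and 1 of the 66 further G2/M genes, while the further control genes (median -0.04) spread around 0.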

How the data were processed

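RNA of THP-1 macrophages in 3 groups was labeled with Cy3 and hybridized to 1 array each. The authors deposited the intensity of each spot from the scanner software (Feature Extraction 10.5.1.1) and a table of raw and quantile-normalized intensity per probe, of which 0 sample columns were left unused. Probe positions are those of the array design (hg19).

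Control spots and outlier-marked spots were left out, spots of a probe were averaged, and the linear values of 58201 probes were quantile normalized (limma 3.58.1, R 4.3.3) before log2 was taken. On the log2 scale these values lay a median of 5.4e-05 from those the authors deposited. A probe not well above background was set to the higher of its value and the lowest value of probes that were, and a gene was compared when well above background on the brighter array. Genes at least 2-fold apart were counted, beside all genes with an identifier, 1 probe each. No p-values were computed, since each group had 1 array, and this number of arrays sets the precision. The labels do not say from how many cultures each RNA came.

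The technical SD of a difference combined the spot SDs, by brightness, of the 300 probes with 10 spots. Only the comparison step was tested on simulated data, with known folds put into probes well above background on each array. Averaging of spots, normalization, the choice of probe, and the rule for a probe dim on a single array were not tested in this way. Further steps used Python 3.11.15, numpy 2.4.6, and pandas 2.3.3, and plots matplotlib 3.10.9. The 49 genes, the further lists of replication, G2/M, and control genes, and the marker lists were chosen with earlier results of these data known. All 49 genes were named, and of each further list the 3 largest rises and falls of at least 2-fold among genes well above background on both arrays; MYBL2, the complexes, and other genes outside this rule were named after their values were seen. Alternatives were 3 other scalings, another background correction (normexp, offset 50), the authors' values, other filters, other probe choices, and thresholds of 1.5-fold and 4-fold.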

Additional observations from a re-analysis of the deposited data

How the results depend on the processing

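No paired analysis was possible because each group had 1 array and the groups shared only 1 replicate number. For IMQ against Ctrl, all 490 values of the 49 genes under 10 alternatives kept their direction. Of these, 334 moved by less than the technical SD, but part of both counts was fixed in advance. The filter settings could not move genes well above background on each array, and the authors' values came from the same normalization. Each of these settings gave 49 of 49 such values. The other probe choices could not move the 36 genes with a single probe. For spike-in scaling and for no normalization, 0 of 49 values moved by less than the technical SD. For IMQ+DMD against IMQ, 440 of 490 values kept their direction, with part of this count fixed in the same way. Of the 50 that turned, 45 came from the 3 other scalings, all of them differences under 2-fold.

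Of the 49 genes, 31 to 46 were at least 2-fold lower after IMQ under the other scalings, filters, probe choices, and background correction. With a threshold of 4-fold 7 were, and with 1.5-fold 44. At least 2-fold higher was 1 gene, 0 without normalization, 2 at 1.5-fold, and 0 at 4-fold. After DMD, 1 gene was lower at 1.5-fold, AURKB.

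Without normalization the IMQ medians were -2.07 for replication, -1.46 for G2/M, and -1.47 for control genes, and with spike-in scaling -1.94, -1.33, and -1.34. These settings moved the median of all genes to -0.49 and -0.36, with 15.8% and 11.3% of all genes at least 2-fold lower and 2.06% and 2.43% higher, so that relative to all genes the group medians shifted less. The 75th percentile gave -1.62 for replication and -1.02 for control genes, and normexp gave -0.94 for G2/M genes. For IMQ+DMD against IMQ, the 75th percentile gave -0.15, -0.18, and -0.15 for replication, G2/M, and control genes, spike-in scaling -0.14, -0.17, and -0.14, and no normalization -0.083 for replication genes. The cause was not tested. Signal limited the dim probes most, where the technical SD of a difference reached 0.33 (CCND2).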
